A study of Mus musculus with 10 samples.

Results

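The 10 genes described here encode enzymes that make or inactivate eicosanoids and related oxylipins. They are Alox5, Alox5ap, Lta4h, Ptgs1, Ptgs2, Ptges, Hpgds, Hpgd, Ptgr1 and Ephx2. The list is given by name and not by a rule on measured values, but earlier results of these data were known when it was chosen. All 10 were found among the 27179 genes of the count table. Liver RNA of male C57BL/6 mice was sequenced from 2 groups of 5 samples each, numbered 1 to 5 within a group. LKO mice carried floxed Lpcat3 alleles and Cre recombinase under the albumin promoter, which acts in hepatocytes, so that other liver cells keep the gene. Control mice carried the same floxed alleles, labelled con, without a Cre label. All mice had eaten a diet labelled as a NASH diet for 12 weeks, a model of nonalcoholic steatohepatitis, and no age is given. The comparison asks how these transcripts stand in steatohepatitis when hepatocytes lack Lpcat3.

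Eicosanoids are signalling lipids made from arachidonic acid, which phospholipases release from membrane phospholipids. LPCAT3 places arachidonic and linoleic acid into those phospholipids. Lipoxygenases open the leukotriene branch, cyclooxygenases open the prostaglandin branch, and cytochromes P450 make epoxides that soluble epoxide hydrolase turns into diols. In liver the first steps of the leukotriene and prostaglandin branches are best known from macrophages and other blood-derived cells, and the epoxide branch from hepatocytes.

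Total counts ran from 26914124 to 46727182 per library. Lpcat3 stood at 25.5 to 38.5 CPM in LKO and at 94.1 to 124 CPM in control, where CPM is a gene's count relative to its library's total, scaled between libraries by the TMM method. It was lower in LKO, with a log2 fold change of -1.79 (SE 0.12; edgeR adjusted p = 0.000151). That test is the quasi-likelihood test of edgeR, with p-values adjusted by Benjamini-Hochberg over all genes tested, here and below. Control 4 stood apart from the other controls. The first principal component of log2 CPM carried 56.8% of the variance and placed the LKO libraries between -8.03 and 82.3 (LKO 3), control 4 at 30.2 and the other controls between -52.7 and -30.1. The titles also hold a code whose meaning the labels do not state (A54, A55 or A67). A54 was shared by LKO 1, LKO 2 and control 1, and the other codes each occur in 1 group, where code and genotype cannot be told apart. Markers of hepatocytes summed to 55554 to 75481 CPM in LKO and to 61574 to 98723 CPM in control, which fits the liver label. All 12 tested hepatocyte markers had negative log2 fold changes, and 0 of 12 passed the test. In each title the code continues with letters that differ between the samples sharing it. The labels do not say whether each sample came from a separate mouse, so p-values measure only the spread between these samples. How much of that spread is technical was not tested.

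Per kilobase of exon, the members spanned a wide range of levels, and their order was nearly the same in both groups. Ephx2 stood highest, at 200.5 ± 67.8 CPM per kb in LKO and 244 ± 80.3 in control (SD, n = 5 each, as for all means below). Hpgd followed with 50.5 ± 14.4 CPM per kb in LKO and 56.3 ± 10.9 in control, then Lta4h with 9.19 ± 0.419 and Ptgs1 with 5.04 ± 0.88 in LKO, against 9.97 ± 0.87 and 4.2 ± 0.305 in control. From Ephx2 down to Hpgds, the ranges of neighbours in this order did not overlap in either group. Below them, Hpgds averaged 1.81 ± 0.74 and Ptgr1 0.834 ± 0.352 CPM per kb in LKO, against 1.11 ± 0.723 and 0.552 ± 0.244 in control, with overlapping ranges. Ptges and Ptgs2 stood lowest, at 0.121 ± 0.0731 and 0.0862 ± 0.0553 CPM per kb in LKO and at 0.0664 ± 0.0201 and 0.0435 ± 0.0508 in control, and their ranges overlapped. Alox5ap ranked above Alox5 in LKO, where their ranges were apart, and below it in control, where they overlapped. Lengths are unions of GENCODE exons on GRCm38, so these levels allow comparison between genes and not between annotations.

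Of the 10 members, 8 passed the filter on low counts and were tested. Ptgs2 and Ptges did not pass it. At an adjusted p under 0.05, edgeR called 0 of the 8, where 10 of all 15226 genes tested, or 0.0657%, were called. DESeq2 called 1 of the 8 (7.95% of all genes) and limma voom with quality weights called 2 of the 8 (16.2% of all genes). At an unadjusted p under 0.05, edgeR had 1 of the 8, where 22.3% of all genes had such a p, so the members as a list did not stand above the background. Of the 8, 4 had positive and 4 negative log2 fold changes, with a median of 0.07, beside a median of -0.00 over all genes. Of all genes, 49.5% had a positive one. Alox5ap was the one member of the 8 whose groups did not overlap, a pattern of 3.95% of all genes. In Alox5ap LKO was higher, as in 1.72% of all genes, and 0 of the 8 were lower without overlap, where 2.23% of all genes were. Without LKO 1, where Ptgs2 and Ptges also passed the filter, edgeR called 0 of the 10 members and 0.558% of all genes.

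**Figure D1:**
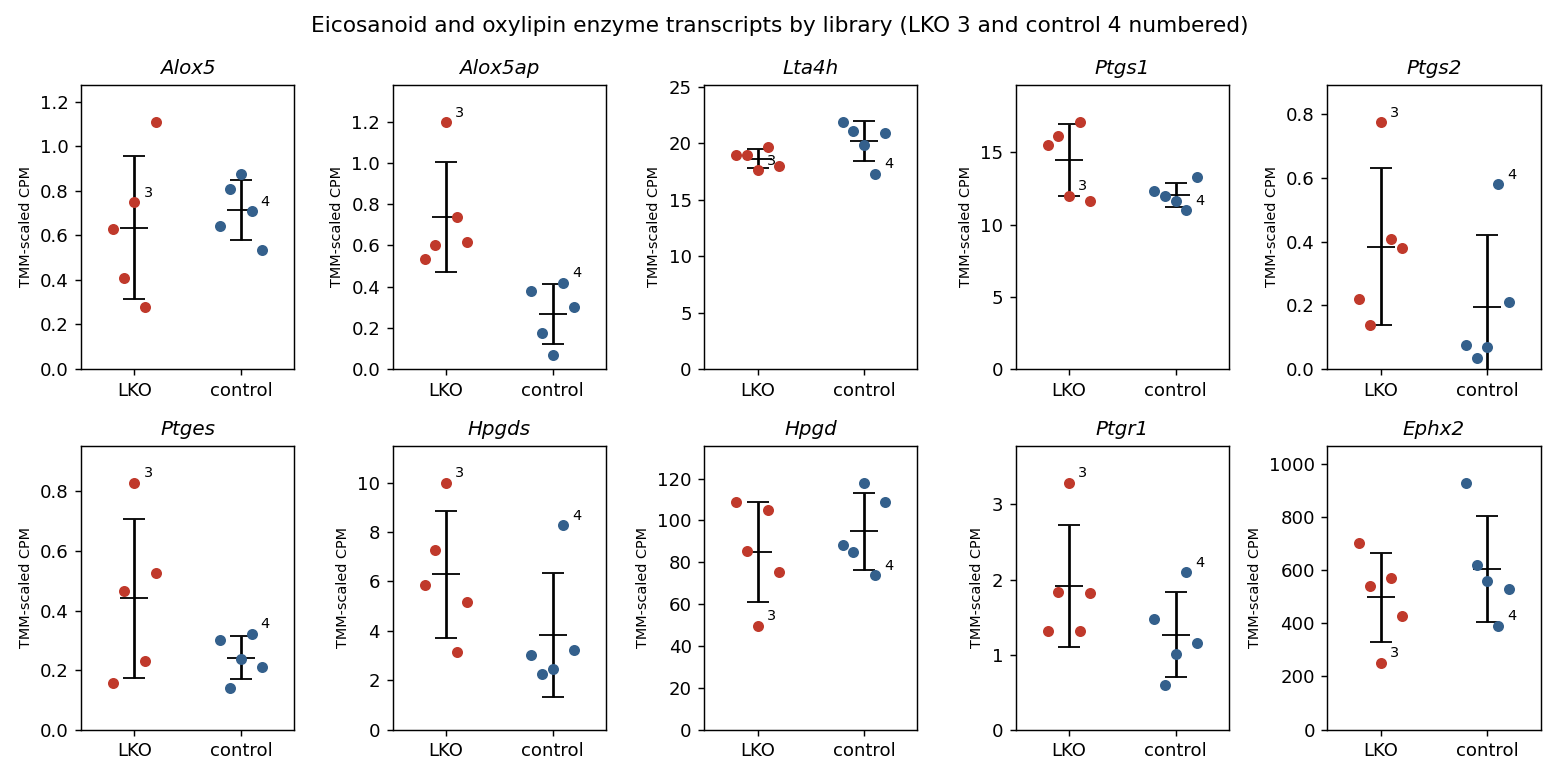
Each panel plots 1 member, with TMM-scaled CPM on the vertical axis, a point per library (5 LKO at left, 5 control at right), and a bar for the mean ± SD, cut at 0. Alox5ap alone shows groups that do not meet, with LKO at 0.534 CPM or more and control at 0.419 CPM or less. Control 4 is the highest control for Ptgs2, Hpgds, Ptgr1, Ptges and Alox5ap, and LKO 3 is the highest LKO library for the same genes.

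In the leukotriene branch, 0 of the 3 members passed the test. Alox5ap encodes FLAP, the membrane protein that presents arachidonic acid to 5-lipoxygenase. It had 0.534, 0.601, 1.2, 0.738 and 0.615 CPM in LKO 1 to 5, against 0.378, 0.176, 0.0675, 0.419 and 0.303 CPM in control 1 to 5. Every LKO library was above every control library, with LKO 3 highest and control 3 lowest. The reads behind these levels were few, 17 to 45 counts per LKO library and 2 to 13 per control library. In control 3 the value lies under the level of 3 counts, 0.101 CPM, the floor for a count of 0, so the low end of the control range is uncertain. The means were 0.738 ± 0.27 CPM in LKO and 0.268 ± 0.146 CPM in control, and the log2 fold change was 1.45 (SE 0.41, 95% interval 0.54 to 2.35), with an unadjusted p of 0.00467 and an adjusted p of 0.118 by edgeR. It did not pass over all genes. By DESeq2 the log2 fold change was 1.46 (adjusted p = 0.0278) and by voom 1.67 (limma adjusted p = 0.0193). Within the A54 code, the difference of LKO 1 and LKO 2 from control 1 was 0.52 on the log2 scale. The fit that includes the code takes the difference from these same libraries alone, and its value was 0.58 (SE 0.82).

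Alox5 itself, the 5-lipoxygenase gene that catalyses the first step, had 0.628, 0.41, 0.749, 0.28 and 1.11 CPM in LKO 1 to 5, against 0.642, 0.808, 0.877, 0.709 and 0.535 CPM in control 1 to 5. LKO held both the highest and the lowest library, and the groups overlapped throughout. Its log2 fold change was -0.17 (SE 0.35, 95% interval -0.93 to 0.60; edgeR adjusted p = 0.795), an interval that allows a change of either sign. Alox5 overlaps the noncoding gene Gm38880, and the treatment of reads in such overlaps was not given in the sources used here.

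Lta4h encodes the hydrolase that makes leukotriene B4, a neutrophil attractant. It had 19.0, 19.0, 17.6, 19.7 and 18.0 CPM in LKO 1 to 5, against 21.9, 21.1, 19.9, 17.3 and 20.9 CPM in control 1 to 5. The 5 LKO values lay close together, below 4 of the 5 controls, and control 4 was the lowest of the 10 libraries. The log2 fold change was -0.12 (SE 0.08, 95% interval -0.29 to 0.06; edgeR adjusted p = 0.386). Scaled to total counts it was 0.13, a scaling under which the median of all genes moved to 0.24 and control 4 was the highest control.

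The ratio of Alox5ap to Alox5, both per kilobase, joins these measurements within a library. It was 1.78, 3.07, 3.37, 5.53 and 1.16 in LKO 1 to 5, against 1.23, 0.456, 0.161, 1.24 and 1.18 in control 1 to 5. The value of control 3 rests on 2 counts of Alox5ap, under the floor. LKO 5, with the highest Alox5, had the lowest ratio of its group and lay within the range of the controls. The other 4 LKO libraries had higher ratios than any control.

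In the prostaglandin branch, the constitutive cyclooxygenase did not pass the test and its inducible partner was near the detection limit. Ptgs1 encodes cyclooxygenase-1, and Ptgs2 encodes cyclooxygenase-2, which is induced in inflammation. Their RefSeq promoter windows, from 250 bases before to 50 after the start site on GRCm38.p6, are shown because these isoenzymes catalyse the same reaction and differ in level and in spread here. The Ptgs1 window lies at chr2:36230176-36230475 on the plus strand and the Ptgs2 window at chr1:150099781-150100080 on the plus strand. Capitals mark matches to a set of 9 motifs, described after the values.
Ptgs1 promoter: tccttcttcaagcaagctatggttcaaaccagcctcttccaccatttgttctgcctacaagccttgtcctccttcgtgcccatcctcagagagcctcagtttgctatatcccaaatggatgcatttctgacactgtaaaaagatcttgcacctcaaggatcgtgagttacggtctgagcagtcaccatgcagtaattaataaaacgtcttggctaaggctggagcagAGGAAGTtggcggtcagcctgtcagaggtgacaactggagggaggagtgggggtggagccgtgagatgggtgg
Ptgs2 promoter: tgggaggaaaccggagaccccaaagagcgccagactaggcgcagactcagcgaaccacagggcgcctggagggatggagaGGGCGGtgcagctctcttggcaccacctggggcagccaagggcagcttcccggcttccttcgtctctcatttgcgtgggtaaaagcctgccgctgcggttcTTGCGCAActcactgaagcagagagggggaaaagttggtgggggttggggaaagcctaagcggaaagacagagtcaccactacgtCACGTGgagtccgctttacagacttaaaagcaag

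Ptgs1 had 15.5, 16.1, 12.0, 17.1 and 11.6 CPM in LKO 1 to 5, against 12.3, 12.0, 11.6, 11 and 13.3 CPM in control 1 to 5. LKO 1, 2 and 4 were above every control, and LKO 3 and LKO 5 were within the control range. The means were 14.4 ± 2.52 CPM in LKO and 12.0 ± 0.876 CPM in control, with a log2 fold change of 0.26 (SE 0.12, 95% interval -0.00 to 0.53; edgeR adjusted p = 0.227). Scaled to total counts it was 0.49 (SE 0.11; edgeR adjusted p = 0.102), and every LKO library then lay above every control. LKO 4 and LKO 2, which had the most Ptgs1, also had the highest sums of Kupffer cell markers (639 and 579 CPM) and of endothelial markers (689 and 598 CPM). Single Kupffer cell markers did not all follow their sum. LKO 2 had the highest Cd5l of the 10 libraries (213 CPM) and the lowest Marco (2.84 CPM). Over all libraries, the 11 Kupffer cell markers, all tested, summed to 402 to 639 CPM in LKO and 318 to 419 CPM in control. Of these markers, 9 had positive and 2 negative log2 fold changes (Clec4f -0.03 and Timd4 -0.23), and 0 were called. The 10 endothelial markers summed to 455 to 689 CPM in LKO and 446 to 512 CPM in control. Their part in the Ptgs1 values was not tested. In bulk tissue, fewer cells of a type and less RNA per cell cannot be told apart.

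Ptgs2 had 7, 5, 29, 16 and 13 counts in LKO 1 to 5, against 2, 1, 2, 18 and 9 counts in control 1 to 5, which is 0.22, 0.137, 0.776, 0.407 and 0.381 CPM against 0.0755, 0.0351, 0.0675, 0.58 and 0.209 CPM. Control 1, 2 and 3 were under the floor of 3 counts, and control 4 stood above 4 of the 5 LKO libraries. Summed over libraries, LKO had 70 counts and control 32. Without a filter on low counts the log2 fold change was 0.96 (SE 0.67; edgeR adjusted p = 0.481). Per kilobase, Ptgs1 exceeded Ptgs2 by 23.9 times in LKO 3 to 183 times in LKO 2, and by 29.3 times in control 4 and 98.7 times in control 5. No ratio is given for control 1, 2 and 3, where Ptgs2 had under 3 counts.

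Ptges encodes the inducible microsomal prostaglandin E synthase, which works downstream of cyclooxygenase-2. It had 5, 17, 31, 9 and 18 counts in LKO 1 to 5, against 8, 4, 7, 10 and 9 counts in control 1 to 5. LKO 2, 3 and 5 had more than any control, while LKO 1 and LKO 4 were within the control range. Without a filter the log2 fold change was 0.86 (SE 0.47; edgeR adjusted p = 0.372). Ptges overlaps the annotated genes Gm52550 and Gm13400, so some of these few reads may be assigned differently under another annotation.

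Hpgds encodes the hematopoietic prostaglandin D synthase, known from macrophages, mast cells and T helper cells. Its promoter window (chr6:65144681-65144980, minus strand) and that of Ptgr1 (chr4:58987029-58987328, minus strand) are shown because these genes, with Ptgs2, Ptges and Alox5ap, were highest in the same libraries of both groups.
Hpgds promoter: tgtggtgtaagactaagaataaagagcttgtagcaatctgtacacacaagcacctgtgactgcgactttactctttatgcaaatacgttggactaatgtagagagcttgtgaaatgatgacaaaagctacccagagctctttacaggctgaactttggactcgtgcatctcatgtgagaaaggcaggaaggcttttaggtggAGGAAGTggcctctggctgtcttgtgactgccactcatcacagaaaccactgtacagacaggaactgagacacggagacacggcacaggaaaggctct
Ptgr1 promoter: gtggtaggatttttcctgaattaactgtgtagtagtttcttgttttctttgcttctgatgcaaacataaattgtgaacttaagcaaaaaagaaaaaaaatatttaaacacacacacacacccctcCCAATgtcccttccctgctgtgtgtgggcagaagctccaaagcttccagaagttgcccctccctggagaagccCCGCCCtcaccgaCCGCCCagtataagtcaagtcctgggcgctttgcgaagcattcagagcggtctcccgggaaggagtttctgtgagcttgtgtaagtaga

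Hpgds had 5.87, 7.29, 10, 3.13 and 5.15 CPM in LKO 1 to 5, against 3.02, 2.25, 2.46, 8.29 and 3.21 CPM in control 1 to 5. Control 4 lay above 4 of the 5 LKO libraries, and the other controls lay at or below 3.21 CPM, which left LKO 4 alone within their range. The log2 fold change was 0.71 (SE 0.39, 95% interval -0.15 to 1.57; edgeR adjusted p = 0.299), with means of 6.3 ± 2.57 CPM in LKO and 3.85 ± 2.51 CPM in control. Without control 4 it was 1.20 (SE 0.29; edgeR adjusted p = 0.0248), and without both control 4 and LKO 3 it was 0.96 (edgeR adjusted p = 0.0255). By voom with quality weights it was 0.97 (limma adjusted p = 0.0414). Without LKO 3 it was 0.47. Within the A54 code the difference was 1.10. The fit that includes the code compares the same libraries, LKO 1 and LKO 2 with control 1, and its value was 1.12 (SE 0.87).

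Without control 4, edgeR called 2 of the 8 members, Hpgds and Alox5ap, where 15.0% of all genes were called. Alox5ap then had a log2 fold change of 1.66 (SE 0.44; edgeR adjusted p = 0.0323), and without both control 4 and LKO 3 one of 1.40 (edgeR adjusted p = 0.0404), where 15.6% of all genes were called and again 2 of the 8 members. Since control 4 resembled the LKO libraries for Hpgds, its removal alone enlarges the difference and makes the remaining controls more alike.

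**Figure D2:**
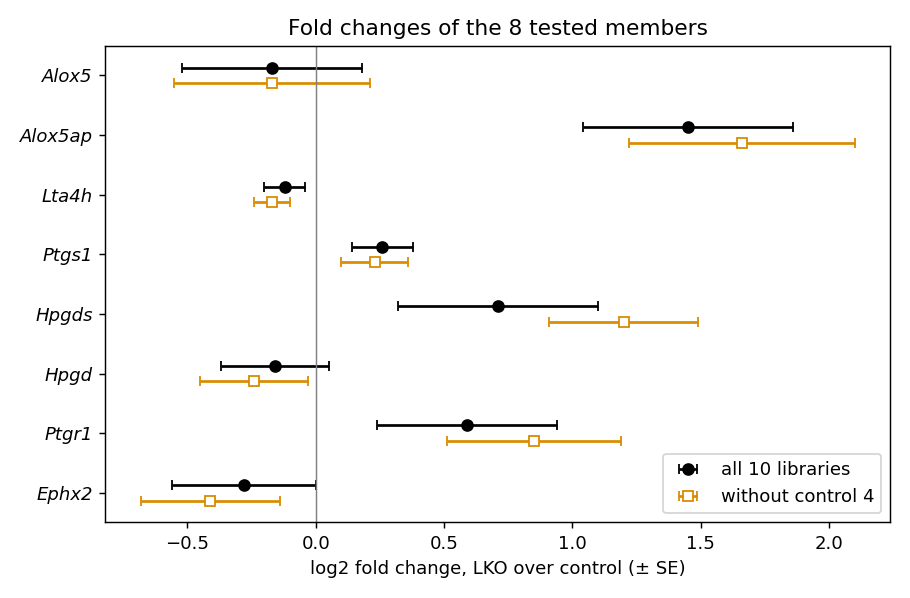
The plot gives the log2 fold change of LKO over control (horizontal axis) with its standard error for the 8 tested members, from all 10 libraries (filled circles) and without control 4 (open squares). Alox5ap stands at 1.45 and 1.66 and Hpgds at 0.71 and 1.20, while Lta4h keeps the smallest standard error.

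Of the genes that inactivate prostaglandins and leukotrienes, neither Hpgd nor Ptgr1 passed the test. Hpgd, which encodes the dehydrogenase that begins the breakdown of prostaglandins, had 109, 85.5, 49.6, 105 and 75.3 CPM in LKO 1 to 5, against 88.1, 84.8, 118, 73.7 and 109 CPM in control 1 to 5. The groups overlapped, and LKO 3 was the lowest LKO library as control 4 was the lowest control. Its log2 fold change was -0.16 (SE 0.21, 95% interval -0.61 to 0.29; edgeR adjusted p = 0.671), and it was 0.06 when scaled to total counts and 0.15 with the title code as a covariate. With 1 library left out it ran from -0.27 (without LKO 1) to -0.02 (without LKO 3), and it was -0.24 without control 4, -0.25 without LKO 4, -0.10 without control 5 and -0.07 without control 3.

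Ptgr1, whose product reduces the keto metabolites made by HPGD and inactivates leukotriene B4, had 1.32, 1.83, 3.29, 1.32 and 1.82 CPM in LKO 1 to 5, against 1.47, 0.597, 1.01, 2.1 and 1.16 CPM in control 1 to 5. LKO 3 was the highest of the 10 libraries, control 4 was second, and the groups overlapped. The log2 fold change was 0.59 (SE 0.35, 95% interval -0.17 to 1.36; edgeR adjusted p = 0.325). It was 0.85 without control 4 and 0.30 without LKO 3. It was 0.10 with the title code as a covariate, a value that rests on LKO 1, LKO 2 and control 1.

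The ratio of Hpgd to Hpgds, the breakdown enzyme over the prostaglandin D synthase, spread over wide ranges per kilobase. It was 38.5, 24.2, 10.2, 69.6 and 30.2 in LKO 1 to 5, against 60.3, 77.9, 99.2, 18.4 and 70.2 in control 1 to 5. LKO 3 and control 4 had the lowest ratios of their groups, and LKO 4 was the one LKO library inside the range of the other 4 controls.

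Ephx2 encodes soluble epoxide hydrolase, which hydrolyses epoxides of arachidonic and linoleic acid and is abundant in hepatocytes. It had 701, 539, 252, 569 and 428 CPM in LKO 1 to 5, against 929, 621, 561, 391 and 528 CPM in control 1 to 5. The groups overlapped, with LKO 3 and control 4 again the lowest of their groups and control 1 the highest of all. The means were 498 ± 168 CPM in LKO and 606 ± 199 CPM in control, with a log2 fold change of -0.28 (SE 0.28, 95% interval -0.89 to 0.33; edgeR adjusted p = 0.563). Without control 1 it was -0.08. The hepatocyte marker sums were lowest in the same library of the controls, control 4 with 61574 CPM, while the other controls had 87911 to 98723 CPM. In LKO 3 the sum was 55554 CPM, the lowest of the 10 libraries. LKO 5 had nearly the same sum, 55863 CPM, but 428 CPM of Ephx2 where LKO 3 had 252 CPM. The part of the hepatocyte sum in the Ephx2 values was not tested.

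Across the 10 members, control 4 and LKO 3 departed from their groups in the same directions. Both also stood apart from their groups on the first principal component of all tested genes, at 30.2 and 82.3. A departure of these libraries is thus not particular to the members. The share of all genes at such extremes was not counted. Control 4 lay above all other controls for 5 members (Ptgs2, Hpgds, Ptgr1, Ptges and Alox5ap), below them for 4 (Ephx2, Hpgd, Lta4h and Ptgs1) and within them for Alox5. LKO 3 lay above all other LKO libraries for the same 5 members and below them for Ephx2, Hpgd and Lta4h. On the log2 scale, control 4 exceeded the mean of the other controls by 2.15 for Ptgs2, 1.59 for Hpgds, 1.01 for Ptgr1 and 0.87 for Alox5ap. LKO 3 exceeded the mean of the other LKO libraries by 1.36 for Ptgs2, 0.96 for Hpgds, 1.06 for Ptgr1 and 0.90 for Alox5ap. Control 4 lay within the LKO range for 7 of the 10 members, the exceptions being Alox5ap, Lta4h and Ptgs1.

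Markers of recruited and lipid-associated macrophages were also highest in LKO 3 and control 4 within their groups. Their 12 genes, all tested and all with a positive log2 fold change (median 1.20, 0 of 12 called), summed to 219.9 to 572 CPM in LKO and 72.8 to 401 CPM in control. The highest LKO sum was in LKO 3 and the control sum of 401 CPM was in control 4, with the other controls at 100 CPM or less. None of these 12 markers was at 0 in any library. The likeness to the members did not hold throughout. In LKO 4 the macrophage sum lay 0.56 above its mean over all libraries on the log2 scale. There Ptgs2 (0.76) and Alox5ap (0.74) lay above their means, and Hpgds (-0.5), Ptges (-0.32) and Ptgr1 (-0.13) below. Neutrophil markers summed to 6.99 to 12.2 CPM in LKO and 3.71 to 8.54 CPM in control, where control 4 was again highest. Of that list 4 of 10 were tested, all 4 with positive log2 fold changes, and 5 of 10 were at 0 in at least 1 library. Mast cell and basophil markers were near 0, with sums of at most 0.508 CPM in LKO and 0.776 CPM in control, 0 of 7 tested and each of the 7 at 0 in at least 1 library. Platelet markers summed to 4.83 to 5.87 CPM in LKO and 4.11 to 4.84 CPM in control, with 4 of 8 tested. The part of these cells in the levels of Hpgds, Alox5ap, Ptgs2, Ptges and Ptgr1 was not tested.

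**Figure D3:**
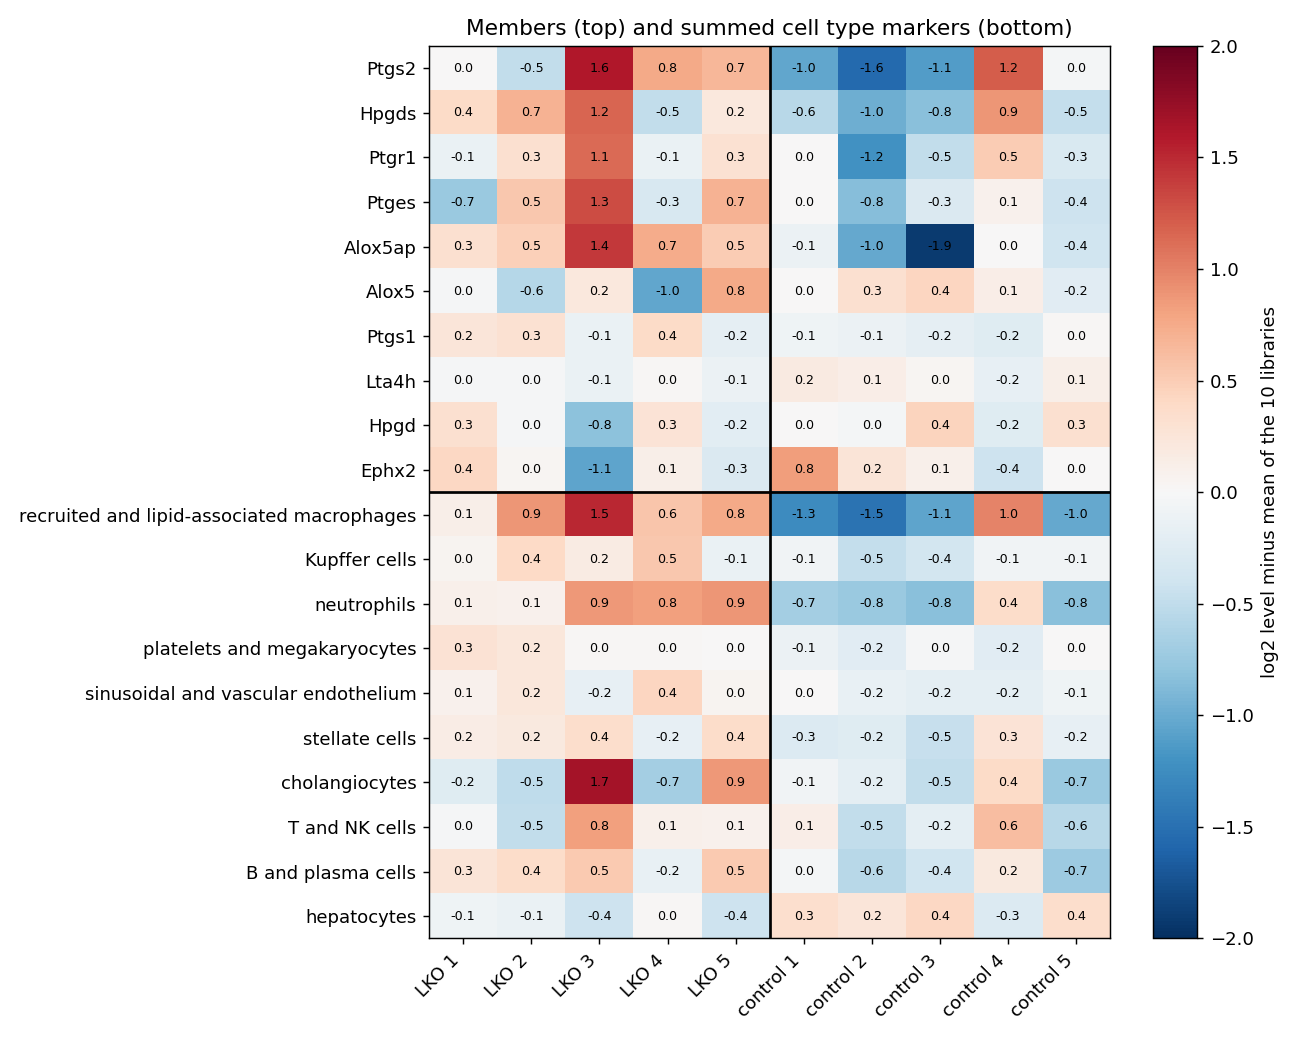
The heat map shows, for each library (columns, LKO at left), the log2 level minus its mean over the 10 libraries, for the 10 members (top) and for 10 sums of cell type markers (bottom). The colour scale is capped at 2 in either direction. LKO 3 and control 4 are red for Ptgs2, Hpgds and the macrophage sum and blue for Ephx2, Hpgd and the hepatocyte sum. LKO 5 equals LKO 3 in the hepatocyte sum (-0.42) but not in Ephx2 (-0.29 against -1.06).

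Other cell type markers were measured beside these. Stellate cell markers summed to 536 to 772 CPM in LKO and 437 to 723 CPM in control, cholangiocyte markers to 14.9 to 75.7 CPM in LKO and 14.3 to 31.3 CPM in control. T and NK cell markers summed to 3.66 to 9.07 CPM in LKO and 3.51 to 7.83 CPM in control, and B and plasma cell markers to 4.84 to 7.78 CPM in LKO and 3.23 to 6.13 CPM in control. In each of these 4 lists control 4 had the highest sum of the controls, and no marker passed the test. LKO 3 had the highest LKO sum for cholangiocytes, for T and NK cells and for B and plasma cells, and LKO 5 for stellate cells.

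The promoter windows of 8 members were found in the RefSeq table of GRCm38.p6, all but those of Alox5ap and Ephx2, and were searched on both strands for 9 motifs. The GC box GGGCGG, bound by Sp1-type factors, was in 5 of the 8 windows (Alox5, Hpgd, Ptges, Ptgr1 and Ptgs2), beside 35.7% of all 32851 windows. An Ets site, AGGAAGT, of the kind bound by PU.1 in macrophages, was in Ptgs1 and Hpgds, beside 9.35% of all windows. Ptgs2 alone held the C/EBP palindrome TTGCGCAA, in 0.183% of all windows, at position -69 from the start site. It alone also held the E-box CACGTG, in 7.15%, beginning at position 17, after the annotated start site. CCAAT was in Lta4h and Ptgr1 (37.4% of all windows). The TATA box letters TATAAA were in Hpgd (13.6%), beginning at position 5, after the annotated start site and not before it. The antioxidant response element core TGACNNNGC (N is any base), the cAMP response element TGACGTCA and the PPAR direct repeat 1 were in 0 of the 8 windows, beside 12.4%, 1.79% and 0.381% of all windows. In the printed windows no match overlapped another. A match describes letters only.

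Other genes of the pathway were taken from 6 lists holding 104 genes of the table, of which 69 were tested. At an adjusted p under 0.05, edgeR called 0 of the 69, beside 0.0657% of all genes. DESeq2 called 15 of them (7.95% of all genes) and voom 26 (16.2% of all genes). At an unadjusted p under 0.05, edgeR had 33 of the 69, 23 higher in LKO (12.8% of all genes) and 10 lower (9.50% of all genes). Without control 4, 24 of the 69 were called, where 15.0% of all genes were. These included Cyp2c70 (log2 -1.33, edgeR adjusted p = 0.00415), Cbr3 (log2 3.01, edgeR adjusted p = 0.00427) and Mgst3 (log2 1.26, edgeR adjusted p = 0.00519). Values given below for single genes did not pass over all genes in the test on 10 libraries.

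Among 9 tested genes in the list named for arachidonate release, 5 had positive and 4 negative log2 fold changes (median 0.01). This list goes by phospholipase gene family, and whether each product releases arachidonate was not checked. Pla2g4a, the cytosolic phospholipase that favours arachidonate, had 3.72 ± 1.16 CPM in LKO and 2.31 ± 0.7 CPM in control (log2 0.69, edgeR adjusted p = 0.176). Pla2g7, which encodes the hydrolase of platelet-activating factor, had 7.48 ± 3.22 CPM in LKO and 4.31 ± 2.06 CPM in control (log2 0.80, edgeR adjusted p = 0.188). Pla2g12a and Pla2g12b, of the secreted phospholipase gene family, stood at -0.30 and -0.19.

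In the leukotriene and lipoxygenase list, 8 of 11 tested genes were positive and 3 negative (median 0.70). Mgst3, a microsomal glutathione S-transferase with leukotriene C4 synthase activity, had 12.3 ± 2.4 CPM in LKO and 6.15 ± 2.5 CPM in control (log2 1.0, edgeR adjusted p = 0.0977). Cyp4f14, of the family that hydroxylates leukotriene B4, had 71.5 ± 24.1 CPM in LKO and 137 ± 30.9 CPM in control (log2 -0.93, edgeR adjusted p = 0.0999). Its relatives Cyp4f13 and Cyp4f16 stood at -0.46 and 1.13. The Cyp4f, Cyp2c and Cyp4a genes form families of similar sequence, so the split of reads among their members is uncertain.

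Of 14 tested genes of prostanoid synthesis, transport and breakdown, 8 were positive and 6 negative (median 0.24). Abcc4, an exporter of prostaglandins, had 11.1 ± 4.48 CPM in LKO and 4.82 ± 0.615 CPM in control, with no overlap between groups (log2 1.21, edgeR adjusted p = 0.0766). The carbonyl reductase genes Cbr1 and Cbr3, whose products can reduce prostaglandin E2, stood at 0.77 and 2.11. Cbr3 had 2.68 ± 1.32 CPM in LKO and 0.618 ± 0.648 CPM in control, where control 4 had 1.77 CPM and the other controls at most 0.421 CPM. Zadh2, of the prostaglandin reductase family, stood at -0.25.

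In the list for the epoxide branch around Ephx2, 13 of 17 tested cytochrome P450 and hydrolase genes had negative and 4 positive log2 fold changes (median -0.34). The list takes Cyp2c and Cyp2j genes by family, and whether each product makes epoxides was not checked. Cyp2c70 had 118 ± 24.5 CPM in LKO and 258 ± 97.1 CPM in control (log2 -1.13, edgeR adjusted p = 0.0999). Cyp2c23, an arachidonic acid epoxygenase, stood at -0.64 and Cyp2c55 at 1.23. Ephx1, the microsomal epoxide hydrolase, had 504 ± 32.2 CPM in LKO and 398 ± 75.8 CPM in control (log2 0.34, edgeR adjusted p = 0.188), opposite in sign to Ephx2. The difference between these hydrolases was not tested. Of the Cyp4a omega-hydroxylases 6 of 6 tested were positive (median 1.09), with Cyp4a31 at 1.22, Cyp4a14 at 2.70, Cyp4a10 at 1.36 and Cyp4a32 at 0.95. Cyp4a31 had 41.8 ± 14.7 CPM in LKO and 17.9 ± 3.54 CPM in control, with no overlap between groups (edgeR adjusted p = 0.0766). Cyp4a14 had 401 ± 230.3 CPM in LKO and 61.7 ± 61.0 CPM in control (edgeR adjusted p = 0.0921). Abcc4 and Cyp4a31 were the 2 of the 69 genes whose groups did not overlap, beside 3.95% of all genes (1.72% with LKO higher), so this count is near the background.

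Of 12 tested eicosanoid receptor genes, 9 were positive and 3 negative (median 0.37). Ptger4, a prostaglandin E2 receptor gene, had 1.84 ± 1.17 CPM in LKO and 0.595 ± 0.361 CPM in control (log2 1.62, edgeR adjusted p = 0.122). LKO 3 was highest with 3.72 CPM, and control 4 had 1.23 CPM, within the LKO range. Cmklr1, a receptor for chemerin and resolvin E1, stood at 0.60 and Fpr2, a formyl peptide and lipoxin receptor, at 1.27. Gpr17, a receptor related to the leukotriene receptors, had 8.38 ± 1.91 CPM in LKO and 12.3 ± 1.43 CPM in control (log2 -0.56, edgeR adjusted p = 0.11).

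**Figure D4:**
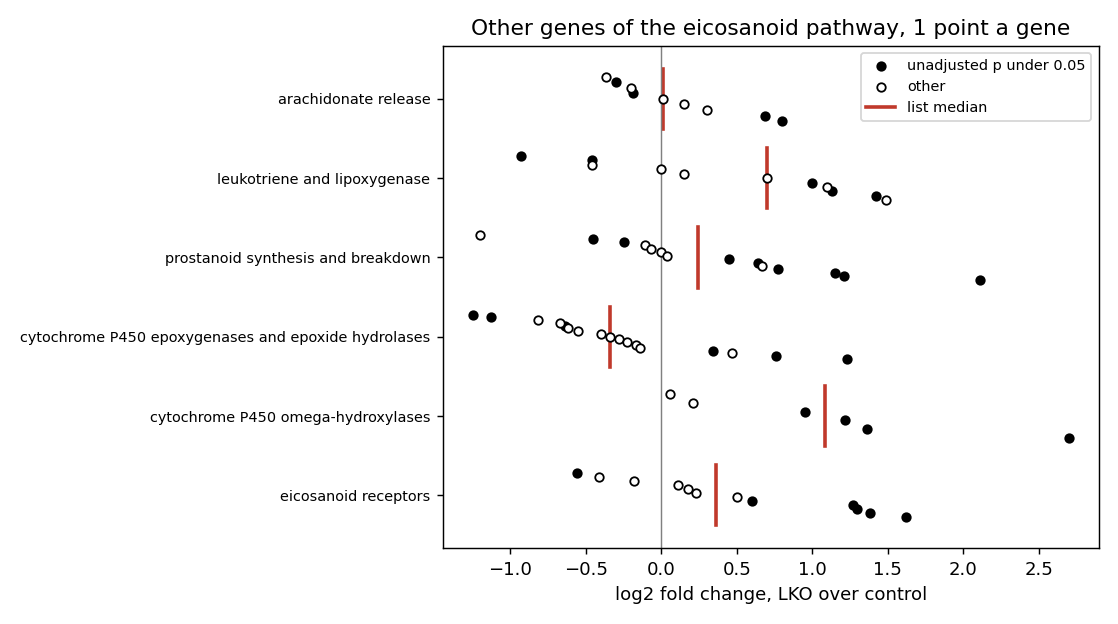
Each point is the log2 fold change of LKO over control (horizontal axis) of 1 of the 69 tested genes in 6 lists, filled where the unadjusted edgeR p is under 0.05, with the median of each list as a bar. The medians run from -0.34 for the epoxygenases and epoxide hydrolases to 1.09 for the omega-hydroxylases.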

How the data were processed

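Bulk RNA sequencing was done on whole liver. Per the labels' protocols, ribosomal RNA was removed, libraries were stranded and 1 lane was read from 1 end. The authors deposited whole-number counts per gene and library, not normalized, by NCBI Gene number. Per the submitters' processing notes, the tools and build include bcl2fastq 2.20, DESeq2 and build GRCm39. The aligner, counting tool, strand setting and annotation were not given in the sources used here. Symbols came from a RefSeq table of GRCm38.p6, which matched 25275 of 27179 genes and 10 of 10 members by symbol, and the genes left without a symbol held 0.693% of counts.

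All genes were tested with edgeR 4.0.16 in R 4.3.3. The function filterByExpr removed low counts, TMM scaled the libraries, and the two-sided quasi-likelihood F test (legacy option) had genotype as its single term. Benjamini-Hochberg adjustment ran over 15226 genes, and calls needed an adjusted p under 0.05. The standard error is the size of the fold change over the square root of F, and 95% intervals come from the test's total degrees of freedom. Log2 CPM used a prior count of 2. DESeq2 1.42.0 and limma 3.58.1 voom were alternatives, beside other scalings and filters, a replicate block, the title code as a term, and each library left out in turn. Leaving out control 4 with LKO 3 was added after seeing the data. All 10 columns were matched by name, 0 were unused, and replicates differed by more than sampling noise (lowest chi-square per degree of freedom 32.1). The floor of 3 counts lay between 0.0698 CPM (control 5) and 0.113 CPM (control 1) and covers counting error only. The procedures were checked on simulated data, in which genes varied independently and no library was shifted as a whole. The check therefore does not bear on why edgeR, DESeq2 and voom called different numbers of genes. Figures were drawn with matplotlib 3.10.9.

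Members and lists were chosen with earlier results of these data known. All members are named, up to 4 genes per pathway list by smallest p, and the 3 genes most like each member with an SD of at least 0.5 on the log2 scale. Pla2g5, Pla2g2f, Pla2g1b, Ptger3, Ltc4s, Alox15 and Ltb4r1, given among other observations, were chosen after their values were seen.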

Additional observations from a re-analysis of the deposited data

Results flagged for a closer look

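A value was set apart where its gap to the nearest library of the same group exceeded 0.71 of the range of the group's 5 libraries. Of 90 groups of values examined, 15 had such a library. The groups come from the same libraries and are not independent, so no chance rate is set beside this count. Among the members, Hpgds had 8.29 CPM in control 4, with 2.25 to 3.21 CPM in the other controls. Ptgr1 had 3.29 CPM in LKO 3, with 1.32 to 1.83 CPM in the other LKO libraries.

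LKO 3 was also the highest LKO library for Pla2g7 (13.1 CPM, the others 4.84 to 6.85), Cyp4f16 (4.92 CPM, the others 1.76 to 2.62), Abcc4 (19.1 CPM, the others 8.39 to 9.97) and Cyp2c55 (13.2 CPM, the others 2.26 to 4.2). Control 4 was the highest control for Pla2g7 (7.93 CPM, the others 2.97 to 3.93), Cyp4f16 (2.74 CPM, the others 0.702 to 1.06) and Cbr3 (1.77 CPM, the others 0.264 to 0.421). The same library was highest for Ptger4 (1.23 CPM, the others 0.34 to 0.562) and Cmklr1 (9.09 CPM, the others 6.31 to 6.72). Its summed markers of recruited and lipid-associated macrophages were 401 CPM, with 72.8 to 100 CPM in the other controls, and its summed neutrophil markers 8.54 CPM, with 3.71 to 4.15 CPM. Other libraries stood apart for 2 genes, Cyp2c23 with 368 CPM in LKO 1 (the others 172 to 216) and Cyp4a14 with 169 CPM in control 5 (the others 18.0 to 45.8).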

How the results depend on the processing

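With 1 library left out, edgeR called from 0 to 2 of the members, from 0 to 24 of the other pathway genes and from 2 to 2296 of all genes. The highest values came without control 4. Without LKO 1, 2 pathway genes and 86 of all genes were called, and without LKO 3, 2 pathway genes and 11 of all genes. Without both control 4 and LKO 3 the counts were 2 members, 23 pathway genes and 2363 of all genes. DESeq2 called 1 member, 15 pathway genes and 1186 of all genes, and voom 2, 26 and 2460. At an adjusted p under 0.1, edgeR called 0 members, 7 pathway genes and 296 of all genes. Without a filter the counts were 0, 1 and 31, with at least 1 CPM in 5 libraries 0, 0 and 20, and with total counts 0, 1 and 12. With the title code as a covariate, the genotype difference rests on LKO 1 and LKO 2 against control 1, so no calls are counted for that fit. The cause of these differences was not tested. Replicate numbers are shared by the groups but did not pair the libraries. Correlations of same-numbered deviations ran from -0.399 to 0.419, 2 of 5 were over 0.1, and 1 of 5 LKO libraries was closest to the control of its number. With the replicate number as a block 0 members, 0 pathway genes and 2 of all genes were called.

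Alox5ap, Ptgs1, Hpgds, Ptgr1 and Ephx2 kept their direction under the alternatives run, Alox5ap between 0.58 and 1.69 and Hpgds between 0.47 and 1.20. With total counts the sign turned for Alox5 (0.11), Lta4h (0.13) and Hpgd (0.06), where the median of all genes was 0.24. The sign also turned for Alox5 with 1 library left out, from -0.46 without LKO 5 to 0.02 without LKO 4, and for Hpgd with the title code as a covariate (0.15). Low counts limit Alox5, Alox5ap, Ptgs2 and Ptges, with 1 to 45 reads per library.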

Other observations

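Genes that the filter on low counts removed fill in parts of the pathway. Of 104 pathway genes, 35 were not tested, 0 of them at 0 counts in all 10 libraries, and the highest count in any library was 40. Ltc4s, the leukotriene C4 synthase gene, had 4 to 12 counts per LKO library and 3 to 12 per control library. Alox15, of the arachidonate 15-lipoxygenase family, had 9, 3, 31, 0 and 8 counts in LKO 1 to 5, against 1, 4, 8, 3 and 3 in control 1 to 5. Ltb4r1, the high-affinity receptor for leukotriene B4, had 33 counts in LKO and 33 in control, summed over 5 libraries each. In 4 untested genes, LKO 3 held more reads than the other 9 libraries together. The secreted phospholipase gene Pla2g5 had 26 counts in LKO 3, of 28 in LKO and 3 in control. Ptger3, a prostaglandin E2 receptor gene, had 40 counts in LKO 3, of 58 in LKO and 20 in control. Of the secreted phospholipase genes Pla2g2f and Pla2g1b, LKO 3 had 17 and 4 counts, of 26 and 4 in LKO and 2 and 0 in control.

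The genes whose levels over the 10 libraries lay closest to a member were found among 12954 genes by the root mean square difference of log2 CPM, each gene centred on its own mean. For Alox5ap they were Cyp3a11 (0.34), Palm (0.36) and Rgs2 (0.37), where the median over all genes was 0.93. Closest to Hpgds were Stil (0.17), Slc37a2 (0.21) and Sfxn3 (0.23), with a median of 0.77. Ptgr1 lay closest to Zfp37 (0.19), Sinhcaf (0.20) and Man1c1 (0.21), with a median of 0.65. Ephx2 lay closest to Fzd4 (0.13), Ak4 (0.13) and Phyh (0.15), with a median of 0.51, and Alox5 to Sipa1l3 (0.28), Sbspon (0.28) and Irak1bp1 (0.31), with a median of 0.55. All 15 of these genes had an edgeR adjusted p above 0.05.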
